A study of Mus musculus with 2 samples.

Results

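Glycolysis and hypoxia response genes were examined in inflammatory monocytes of the mouse colon lamina propria. The set was a list of 31 genes: 19 of glycolysis (enzymes, glucose and lactate transporters and regulatory enzymes) and 12 of the response to low oxygen. Each gene was represented by the probe set that carries its symbol alone, and by the one with the highest mean level where it had several. In all, 27 of the 31 genes had such a probe set, among 22180 genes on the array. Aldoa and Ankrd37 occur only in probe sets shared with other genes, and Gpi1 and Eno1 are not in the annotation used here, so these 4 genes have no value.

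The cells came from C57BL/6 mice, either wild type (WT) or without the innate immune receptor Nlrp6 (Nlrp6-/-), which can form an inflammasome. Both groups had been given the carcinogen azoxymethane (AOM, 10 mg/kg). From day 5 they had 5 days of 2% dextran sodium sulfate (DSS), an agent that damages the gut lining and causes colitis. On day 10 cells carrying CD11b and high Ly6C, without CD3 and Ly6G, were sorted. Each genotype had 1 Affymetrix Mouse Gene 2.1 ST array, so differences carry neither errors nor p-values and could not be tested. The labels do not say how many mice gave each RNA, nor their age, nor how Nlrp6 was removed, and the arrays' number limits the precision.

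Values are log2 levels, on which a difference of 1 is a factor of 2, and differences are Nlrp6-/- minus WT. A gene counted as measured if it was above a detection floor on at least 1 array. The floor came from 1405 probe sets of odorant and pheromone receptors: their 95th percentile was 3.26 in WT and 3.22 in Nlrp6-/-, and 9536 genes were measured. Among these receptors the SD of the difference was 0.19, which gives a scale for dim signals without replacing replicates. Of the genes behind the sort, Ly6c2 had levels of 9.06 (WT) and 9.36 (Nlrp6-/-). Itgam, which encodes CD11b, was at 8.46 and 8.25, while Ly6g was near the floor at 3.32 and 3.58. The CD3 genes were above the floor and did not go one way: Cd3d was at 4.52 and 4.99, Cd3e at 4.21 and 3.98 and Cd3g at 3.33 and 3.53. Nlrp6 lay below the floor on both arrays, at 2.32 and 2.67, so the arrays give no check of the genotype labels.

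Glycolysis splits glucose into pyruvate, which is reduced to lactate when oxygen is short or when myeloid cells are activated. Cells sense oxygen through prolyl hydroxylases (Egln genes), which mark the alpha subunits of hypoxia-inducible factor (HIF) for destruction by the von Hippel-Lindau ubiquitin ligase. When oxygen falls, HIF accumulates and activates genes for glucose uptake, glycolysis, angiogenesis and mitochondrial turnover, and also Egln1 and Egln3, which act back on HIF. The inflamed colon is poor in oxygen, and inflammatory signals can also stabilise HIF-1α in myeloid cells.

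The hypoxia response genes and the glycolytic genes differed between the arrays in unlike ways. All 10 measured hypoxia response genes were higher in Nlrp6-/-, where 51.6% of all measured genes were higher by any amount, and their median difference was 0.53. Of these, Pdk1 was above the floor only in Nlrp6-/- and so entered through the array where it was high. The 9 genes above the floor on both arrays were all higher, with a median of 0.47. Hif1a and Ndrg1 were higher by only 0.06, and 9 of 10 were higher with the dimmest measured probe set of each gene. A longer list of further HIF targets did not share this: of 37 measured, 18 were higher and 19 lower, with a median of 0.00. The genes of both lists were chosen with earlier results of these data known. Of the 14 measured glycolysis genes 7 were higher and 7 lower, with a median of -0.01, beside 48.4% of all measured genes that were lower and a median of 0.01. The single gene at least 2-fold apart was Egln3, higher in Nlrp6-/- (1.61% of all measured genes were at least 2-fold higher). A further 4, Bnip3, Pdk1, Egln1 and Hilpda, were at least 1.5-fold higher, which makes 5 of 24 measured genes against 6.21% of all measured genes. With both arrays required above the floor, which leaves out Pdk1, the count was 4 of 23. None of the 24 was 1.5-fold lower, against 3.05% of all measured genes at least 1.5-fold lower and 0.325% at least 2-fold lower. The difference between the groups could not be tested with 1 array each. Epithelial markers were higher on the same array, with a median of 0.69 over 20 measured genes, 16 of them above both floors. Their part in these differences was not tested.

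**Figure D1:**
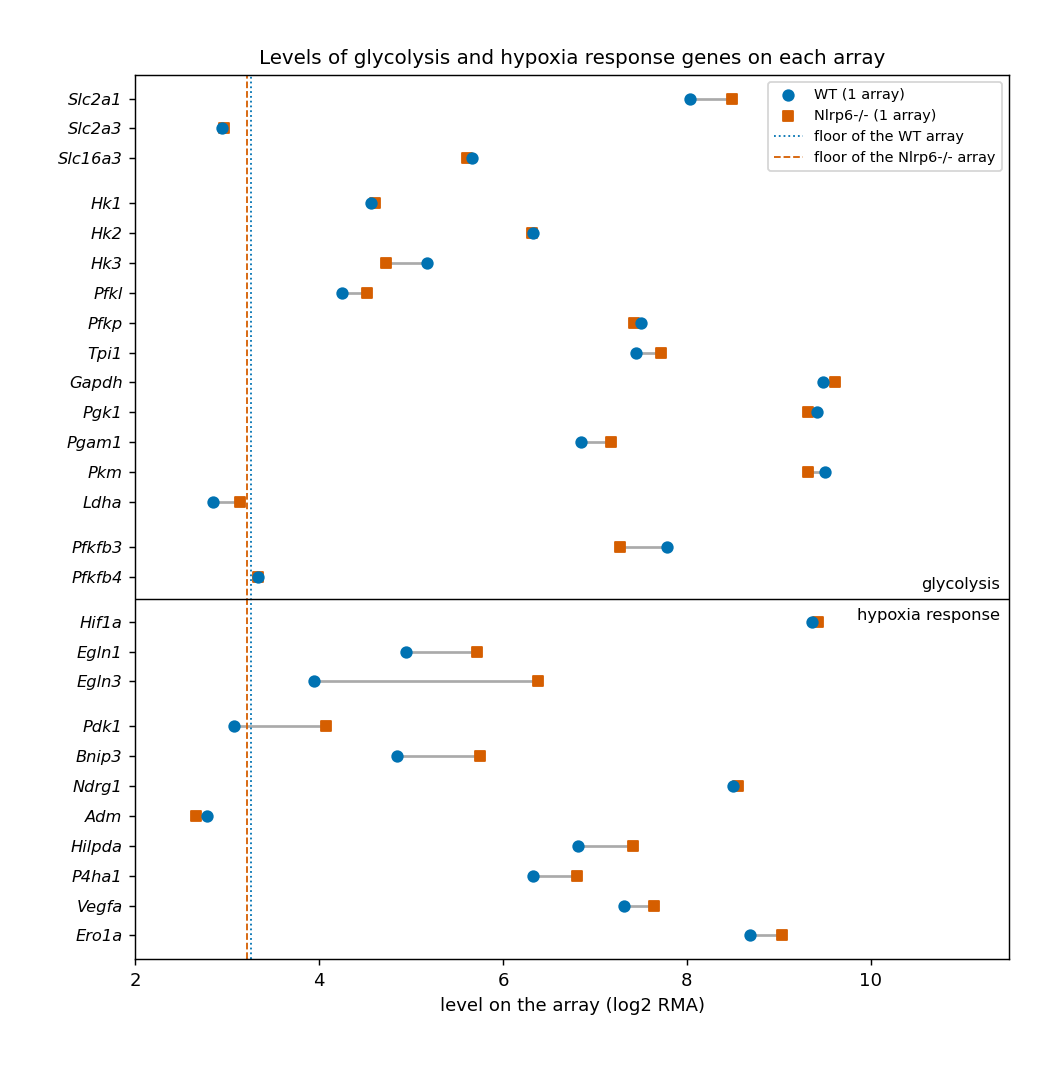
Log2 level of each of the 27 genes with a probe set of its own on the WT array (circles) and on the Nlrp6-/- array (squares), with the arrays' floors at 3.26 and 3.22 as vertical lines. Egln3 has the widest gap, from 3.94 to 6.38, while most glycolytic enzymes have nearly overlapping points; Slc2a3, Ldha and Adm lie left of both floors.

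The core letters that HIF binds, ACGTG or GCGTG on either strand, were searched in the 250 bases before each transcription start in RefSeq (mouse GRCm38.p6). A match on each strand was counted separately where both overlap, as in CACGTG. Of the 31 genes 29 had a start in the table, and 27 of these had a match before at least 1 start: 11 of 11 hypoxia response genes and 16 of 18 glycolysis genes. The same held for 59.5% of measured genes with a start in the table, and 38.6% of all starts had a match. The letters occurred in both groups, those that were higher in Nlrp6-/- and those that were not. The starts of both were also rich in G and C, with a median of 63.8% for hypoxia response and 62.8% for glycolysis genes against 59.6% for measured genes, and the shares were not adjusted for this. A match is no evidence of binding.

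Stretches of 60 bases are shown for the 5 genes with the highest differences and the 3 glycolysis genes with the lowest, among genes with a match before their most upstream start. They allow the letters to be seen at both ends of the range, and the matches are in capitals:
Egln3: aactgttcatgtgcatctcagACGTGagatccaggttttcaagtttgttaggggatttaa
Bnip3: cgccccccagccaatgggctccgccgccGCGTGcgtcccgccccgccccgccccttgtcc
Pdk1: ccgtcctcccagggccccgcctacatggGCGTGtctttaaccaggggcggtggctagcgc
Egln1: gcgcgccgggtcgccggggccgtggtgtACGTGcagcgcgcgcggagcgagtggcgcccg
P4ha1: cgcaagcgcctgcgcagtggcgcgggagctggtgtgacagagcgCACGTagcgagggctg
Pfkfb3: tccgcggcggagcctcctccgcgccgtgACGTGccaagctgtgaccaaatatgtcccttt
Hk3: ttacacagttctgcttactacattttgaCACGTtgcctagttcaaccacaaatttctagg
Pgk1: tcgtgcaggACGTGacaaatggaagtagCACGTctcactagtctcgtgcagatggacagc

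All of them lie upstream of the gene, outside its transcript as counted from that start, and are written 5′ to 3′ on the gene's strand. On the minus strand are Egln3 at chr12:54204065-54204124, Bnip3 at chr7:138909510-138909569 and Egln1 at chr8:124949291-124949350. So are Pfkfb3 at chr2:11553958-11554017 and Hk3 at chr13:55021510-55021569. On the plus strand are Pdk1 at chr2:71873118-71873177, P4ha1 at chr10:59323236-59323295 and Pgk1 at chrX:106186941-106187000. The single Egln3 match lay 229 bases before its start, while the nearest Egln1 match lay 68 bases before its start. Hilpda had no match before its most upstream start and 3 matches before another, so no stretch of it is shown.

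Among the oxygen sensors, Egln3, a prolyl hydroxylase that HIF itself induces and whose printed stretch holds ACGTG, was at 3.94 in WT and 6.38 in Nlrp6-/-. The difference of 2.44 is 5.41-fold, and 7 of the 9536 measured genes had a higher difference or bound. The WT level was above the 95th percentile of the receptor probe sets but below their 99th percentile of 5.08. Against that stricter floor the difference is a bound of 1.30. Egln1, the main hydroxylase that keeps HIF low in well-oxygenated cells, was at 4.95 and 5.72, which is 1.70-fold higher in Nlrp6-/-. Both hydroxylases were thus high on the same array, while Hif1a, the alpha subunit they mark, was at 9.36 and 9.42. A second Hif1a probe set gave 6.53 and 6.54. The Hif1a transcript thus differed by 0.06 at most, and the arrays do not measure its protein, on whose stability oxygen acts.

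Of the other HIF targets, Bnip3, which directs mitochondria to autophagy, was at 4.85 in WT and 5.75 in Nlrp6-/-, 1.86-fold higher. Pdk1, the kinase that shuts pyruvate dehydrogenase and so keeps pyruvate from the mitochondria, was below the floor in WT at 3.07 and at 4.07 in Nlrp6-/-, at least 1.75-fold higher. Its second probe set was below both floors, at 3.04 and 2.98, and did not show the difference. Hilpda, which blocks lipid droplet breakdown, was at 6.81 and 7.41, 1.51-fold higher and just past the 1.5-fold limit.

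P4ha1, a subunit of the collagen prolyl hydroxylase, was at 6.33 and 6.80, a difference of 0.47 just inside that limit. Vegfa, the angiogenic growth factor, was at 7.32 and 7.64. Ero1a, an oxidase of disulfide formation in the endoplasmic reticulum, was at 8.69 and 9.03. These 3 genes were higher in Nlrp6-/- by 0.32 to 0.47, but for Ero1a the second probe set was at 8.58 on both arrays. Ndrg1, a stress-response gene strongly induced by hypoxia in many cells, was at 8.50 and 8.55, with a difference of 0.11 in its second probe set. Adm, the vasodilator peptide adrenomedullin, was below both floors at 2.78 and 2.66. Without Egln3 the median of the 9 remaining measured genes was 0.47.

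**Figure D2:**
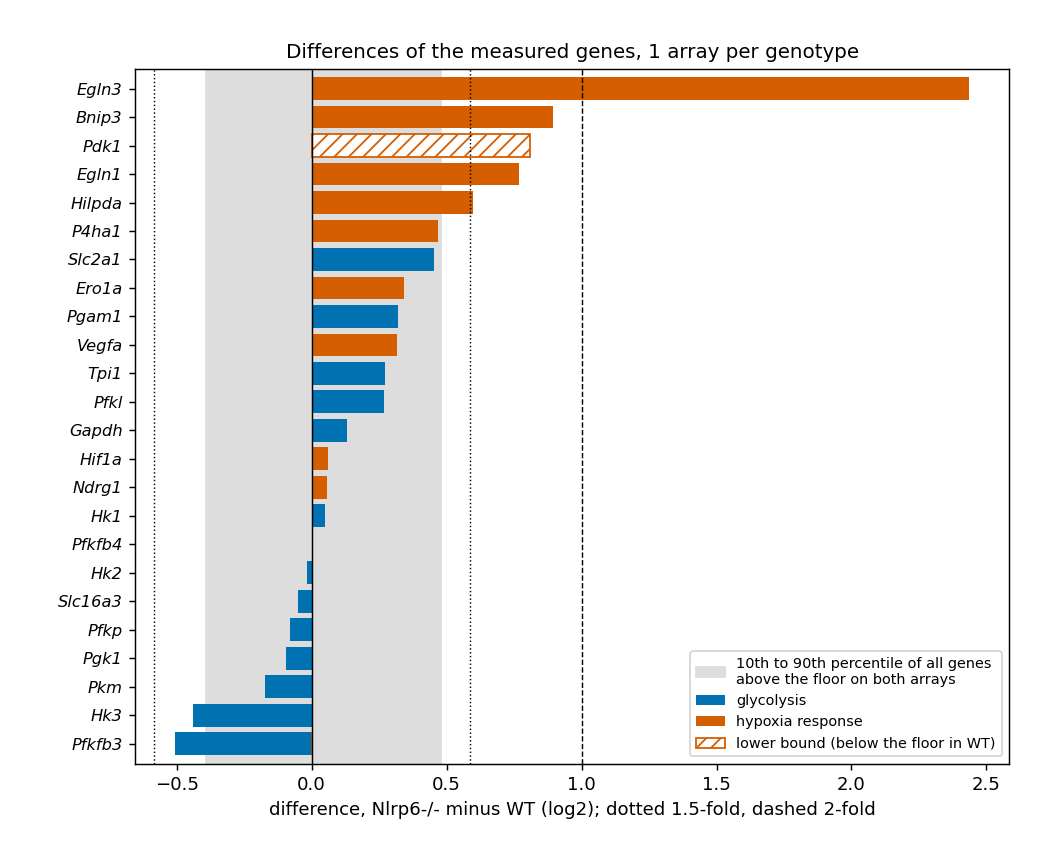
Difference in log2 level (Nlrp6-/- minus WT) of the 24 measured genes, coloured by group, with the 10th to 90th percentile of all genes above the floor on both arrays (-0.39 to 0.48) shaded; the hatched bar is the lower bound of Pdk1. Egln3 stands far to the right at 2.44, Bnip3, Pdk1, Egln1 and Hilpda pass the 1.5-fold line, and Pfkfb3 and Hk3 are the 2 bars that reach left of the shaded range.

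In the glycolytic pathway, glucose entry came first. Slc2a1, the widely expressed glucose transporter GLUT1 and a HIF target, was at 8.03 in WT and 8.49 in Nlrp6-/-, 1.37-fold higher, and its second probe set was higher by 0.22. Slc2a3, the high-affinity transporter GLUT3, was below both floors at 2.94 and 2.97. Slc16a3, which exports lactate and is also a HIF target, was at 5.66 and 5.61. Slc2a1 therefore had the largest increase among the glycolysis genes, inside the 10th to 90th percentile of genes above the floor on both arrays, -0.39 to 0.48.

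The hexokinases, which trap glucose by phosphorylation, did not go one way. Hk1 was at 4.56 and 4.61, and Hk2, the inducible isoform, at 6.33 and 6.32. Hk3, the isoform typical of myeloid cells, had levels of 5.17 (WT) and 4.73 (Nlrp6-/-) and a difference of -0.44. Of all measured genes 7.26% had a lower difference or bound than Hk3. The phosphofructokinases, which catalyse the committed step, were at 4.25 and 4.52 for Pfkl and at 7.50 and 7.42 for Pfkp.

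Pfkfb3, whose product makes the activator of phosphofructokinase and is induced by inflammatory signals and hypoxia, was at 7.78 in WT and 7.27 in Nlrp6-/-. Its difference of -0.51 was the lowest of the 24 genes, and 5.05% of all measured genes were lower. Pfkfb4, a related enzyme, was just above the floors at 3.33 and 3.34. Pfkfb3 and Pdk1, both known as HIF targets and both with a match in their printed stretches, thus lay on opposite sides of 0.

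The later enzymes differed little. Tpi1, which interconverts the triose phosphates, was at 7.45 in WT and 7.72 in Nlrp6-/-. Gapdh was at 9.48 and 9.61, with differences of 0.13, 0.10 and -0.26 in its 3 probe sets, of which the third was at the floor; its many pseudogene copies could share signal. Pgk1, which makes the first ATP of the pathway, was at 9.41 and 9.32. Between them the enzymes of this stretch went in both directions, by 0.27 at most in their brightest probe sets.

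Pgam1, the phosphoglycerate mutase, was at 6.85 and 7.17, but its dimmer probe set was at 3.53 and 3.34 and pointed the other way. Pkm, the pyruvate kinase of myeloid cells, was at 9.50 and 9.32. Ldha, which turns pyruvate into lactate, had a single probe set below both floors, at 2.85 and 3.14, so its level could not be compared. The 10 measured enzymes had a median of 0.02 and ranged from -0.44 to 0.32.

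**Figure D3:**
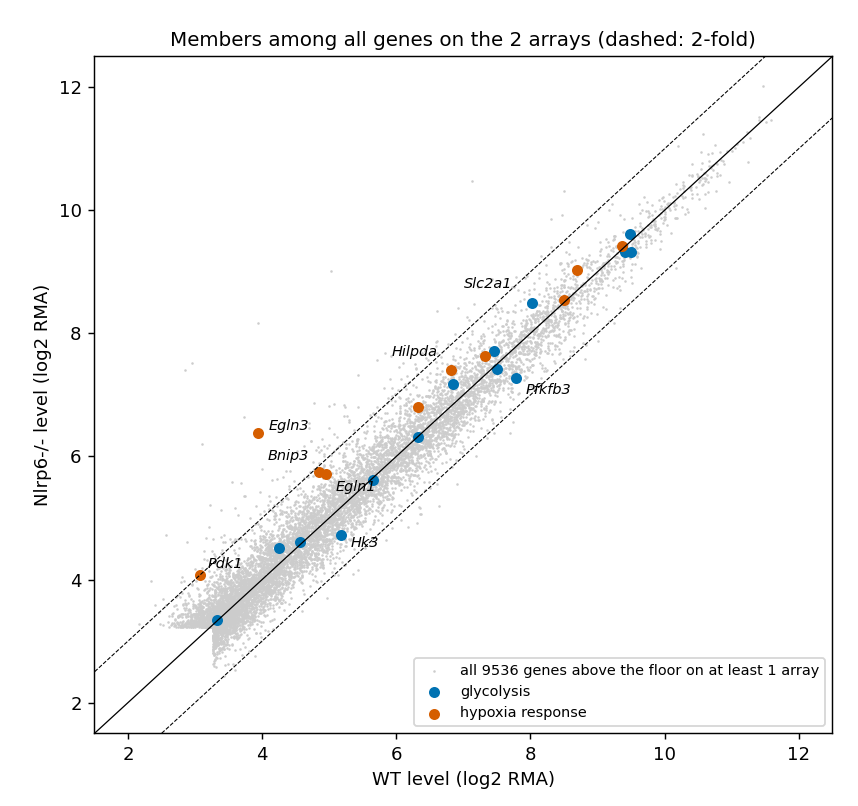
Nlrp6-/- level against WT level (log2 RMA) for all 9536 measured genes in grey and for the measured glycolysis and hypoxia response genes in colour, with lines for equal level and for 2-fold. Egln3, at 3.94 and 6.38, is the coloured point clearly outside the 2-fold lines; the glycolysis genes lie along the line of equal level.

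Other genes of the same pathways were taken from lists of further members. Of 18 regulators of HIF, 13 were measured, with a median of 0.05. Against 6.21% of all measured genes at least 1.5-fold higher and 3.05% lower, 2 of the 13 were higher and 0 lower. The 2 belong to the ubiquitin ligase that removes HIF: Vhl, its recognition subunit, had a WT level of 3.38 and an Nlrp6-/- level of 4.01, and Eloc, the adaptor elongin C, levels of 5.71 and 6.58. Vhl was close to the floor and not measured against the 99th percentile, where 1 regulator passed 1.5-fold. Elob, the partner of Eloc, differed by 0.29, and Cul2, the scaffold, by 0.05. Hif1an, which blocks HIF's transcriptional activity, differed by -0.28, and Epas1, which encodes HIF-2α, by -0.22.

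A longer list of 55 further HIF targets had no shift of its median. Of these 37 were measured, 18 higher and 19 lower by any amount, with a median of 0.00. At least 1.5-fold lower were 0, against 3.05% of all measured genes. At least 1.5-fold higher were 2, 1 of them 2-fold, against 6.21% and 1.61% of all measured genes. The 2 were Fam162a, a mitochondrial protein induced by hypoxia, at 5.65 in WT and 6.70 in Nlrp6-/-, and Isg20, an exonuclease that interferon also induces, at 5.56 and 6.49. Ak4, a mitochondrial adenylate kinase, was below the floor in WT at 2.46 and at 3.48 in Nlrp6-/-, a bound of 0.21. Ddit4, Kdm3a and Plin2, commonly used as hypoxia markers, differed by 0.00, -0.08 and -0.04. Hmox1, which many other signals induce, was at 11.24 and 10.79.

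Genes of glucose entry, pyruvate transport and the pyruvate dehydrogenase complex had a median of 0.14 over 12 measured of 22. Mpc1, a subunit of the mitochondrial pyruvate carrier, was the 1 gene past 1.5-fold, and past 2-fold, at 4.92 in WT and 6.04 in Nlrp6-/-. Its second probe set, at 4.11 and 4.22, differed by 0.11. Pdk3, another kinase of pyruvate dehydrogenase, differed by 0.51 and Pdp1, the opposing phosphatase, was below the floor in Nlrp6-/-, a bound of -0.39. Among other glycolytic isoenzymes 4 of 20 were measured, with Eno3, the muscle enolase, at 3.29 and 4.27, and Ldhb differing by 0.28. Eno2 was at 3.26 in WT and below the floor in Nlrp6-/-, a bound of -0.04. Eno3 was below the floor on both arrays when the floor was the 99th percentile. No gene of these 2 lists was 1.5-fold lower.

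**Figure D4:**
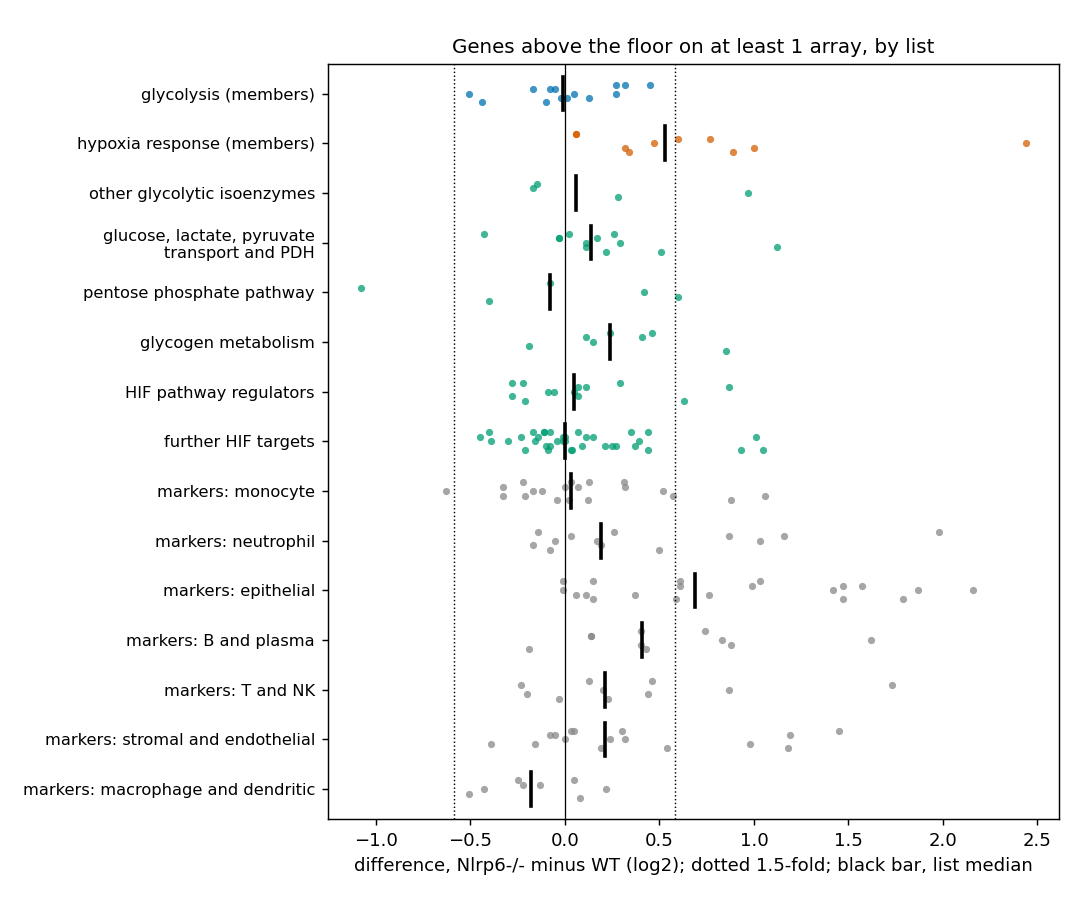
Difference in log2 level (Nlrp6-/- minus WT) of each measured gene by list, with the list median as a black bar and 1.5-fold as dotted lines. Genes below the floor on 1 array are drawn at the difference of their levels, not at their bound. Zg16 is thus at 2.16 and Ak4 at 1.01, past the 1.5-fold line, although its bound is not. The hypoxia response genes lie right of 0 with a median of 0.53, the further HIF targets are spread on both sides with a median of 0.00, and epithelial markers are shifted right with a median of 0.69.

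Markers of epithelial cells, and less evenly those of other cells, were higher on the same array as the hypoxia response genes. Of 20 measured epithelial markers 18 were higher in Nlrp6-/- and 8 at least 2-fold. Lypd8 was at 1.87, Muc13 at 1.79, Lgals4 at 1.57 and Zg16 at a bound of 1.47. Krt18 was at 1.42 and Cdh1 at 1.47, but their second probe sets differed by only 0.33 and 0.29. The summed level of the 20 markers on the linear scale was 622 in WT and 1140 in Nlrp6-/-. Epcam was at 4.71 and 5.74, while Krt20, Slc26a3 and Cdx2 were below both floors. No marker is at 0 on this scale. Beside the counts of these and the following markers, 51.6% of all measured genes were higher by any amount and 1.61% at least 2-fold. Markers above the floor only in Nlrp6-/- entered the counts through the array where they were high. Above the floor on both arrays were 16 of the 20 epithelial and all 16 stromal and endothelial markers. The same held for 9 of 10 B and plasma, 11 of 13 neutrophil and 8 of 10 T and NK markers.

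Stromal and endothelial markers summed to 861 and 1470, but 12 of 16 were higher and 4 lower, with a median of 0.21. The 3 at least 2-fold higher were Mgp at 1.45, Col1a2 at 1.19 and Lum at 1.18; a second probe set of Col1a2 differed by 0.22, and Col1a1 by 0.05. B and plasma cell markers summed to 1350 and 2020, with 9 of 10 higher, Mzb1 at 1.62, Jchain at 0.88 and Tnfrsf17 at a bound of 0.72. Of 22 neutrophil markers 13 were measured and 9 were below both floors. Among the 13, 9 were higher and 4 lower, with sums of 2780 and 3000. Retnlg was at a bound of 1.95, S100a8 at 1.16 and S100a9 at 1.03, while Mmp8 was at -0.17, Wfdc21 at -0.14 and Csf3r at -0.05. Among T and NK markers 7 of 10 were higher, with sums of 538 and 572, Gzma at a bound of 1.35, Gzmb at 0.87 and Cd3d at 0.46. The neutrophil sums rest mainly on 1 bright gene, Slpi, at 10.73 in WT and 10.65 in Nlrp6-/-. Those of T and NK markers rest mainly on Il7r, at 8.58 and 8.54. In the B and plasma cell sums the brightest gene, Jchain, at 9.22 and 10.09, weighs most. Mgp, at 7.43 and 8.88, and Dcn, at 7.48 and 8.46, weigh most in the stromal and endothelial sums.

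Monocyte markers summed to 13300 and 13000, with 12 of 20 higher, a median of 0.03, F13a1 at 1.06, Fcgr1 at 0.88 and Lyz1 at -0.63. Macrophage and dendritic markers went the other way, with 5 of 8 lower, a median of -0.18 and sums of 1050 and 942. Cd209a was at -0.43 and Adgre1 at -0.25, and Mertk had a bound of -0.08. A dimmer Cd209a probe set pointed the opposite way, below the floor in WT at 2.97 and at 3.58 in Nlrp6-/-. In a sorted bulk sample a larger share of another cell type and more RNA per cell cannot be told apart.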

How the data were processed

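RNA of 1 WT and 1 Nlrp6-/- sample, grouped by the genotype in the labels, was compared. Per the labels' protocols, 10 ng of RNA was amplified to cDNA, and the authors computed robust multiarray average (RMA) values in R 2.15.1 using oligo. RMA forces arrays to the same distribution, which hides any change common to all transcripts. The set of arrays normalized jointly is not stated in the labels. The deposited values are log2 levels, not ratios, and their medians were 2.87 (WT) and 2.84 (Nlrp6-/-). Genes were named from the platform annotation: of 41345 probe sets 23521 had 1 symbol, 1814 several and 16010 none.

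Where only 1 array was above the floor, the difference was a bound: the level above it minus the larger of the other array's floor and level. Medians used measured levels. Python 3.11.15 with pandas 2.3.3 was used, and the calculation was tested on simulated arrays. All 27 genes are named. Of other pathway lists, genes past 1.5-fold are named, made up to 3 with the largest differences, and of each marker list the 3 with the largest measured differences. Others named as further examples (Cul2, Hif1an, Epas1, Ddit4, Kdm3a, Plin2, Hmox1, Taldo1, Gbe1, Cd3e, Cd3g, Ly6g, Ly6c2, Itgam, Epcam, Lgals4, Krt18, Cdh1, Col1a1, Dcn, Krt20, Slc26a3, Cdx2, Mmp8, Wfdc21, Csf3r, Slpi and Il7r) were chosen after their values were seen. The members and lists were chosen with earlier results of these data known. Alternatives were other normalizations, floors, probe set rules and the mean in place of the median.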

Additional observations from a re-analysis of the deposited data

How the results depend on the processing

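Among 10 alternatives, 1 took the mean in place of the median. Over the others the median of the hypoxia response genes ranged from 0.47 to 0.54 and that of the glycolysis genes from -0.07 to 0.02. The means were 0.69 for the hypoxia response genes and 0.01 for the glycolysis genes. The count of genes at least 1.5-fold higher was 4 or 5. Egln3, Bnip3 and Egln1 were among them under each alternative. Hilpda left with renewed quantile normalization, and Pdk1 left with the floor at the 99th percentile, with both arrays required above the floor and with the mean of probe sets, at 0.27. Bnip3 was a bound of 0.67 with the stricter floor, where 20 of the 31 genes were measured. In that setting Pdk1 was not measured. All measured hypoxia response genes were higher except Adm with no floor (10 of 11 higher) and Ero1a with the lowest probe set (9 of 10). In the other pathway lists 8 of 78 measured genes passed 1.5-fold, 7 higher and 1 lower, beside 6.21% and 3.05% of all measured genes. The count was 6 to 10 under the alternatives: with the stricter floor Vhl and Eno3 left, and Mpc1 left with its lowest probe set. No called value reversed. Where a gene had more than 1 probe set above both floors (422 genes), the differences disagreed by a median of 0.31 and a 90th percentile of 0.79, which is more than the difference of Egln1, Hilpda or P4ha1. No paired analysis was possible because each genotype has 1 array and no label links the arrays by a number.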

Other observations

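Among pathways that branch from glycolysis, the pentose phosphate genes went in both directions, while most measured glycogen genes were higher in Nlrp6-/-. In the pentose phosphate pathway, which makes NADPH, Pgd, its second dehydrogenase, had levels of 9.24 (WT) and 8.16 (Nlrp6-/-) and a difference of -1.08, and 22 of 9536 measured genes had a lower difference or bound. Taldo1, the transaldolase, differed by -0.40 and Rpe, the ribulose phosphate epimerase, by 0.42. Rpia, the ribose phosphate isomerase, was below the floor in WT, with a bound of 0.33. Over the 5 measured genes of 9 the median was -0.08, with 1 at least 1.5-fold lower and 0 higher. Of all measured genes 3.05% were at least 1.5-fold lower.

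In glycogen metabolism 6 of 7 measured genes of 11 were higher in Nlrp6-/-, where 51.6% of all measured genes were higher. The median difference was 0.24, and 6.21% of all measured genes were at least 1.5-fold higher. Pygl, the glycogen phosphorylase of liver and leukocytes, was the 1 gene past 1.5-fold, from 5.42 in WT to 6.27 in Nlrp6-/-. Pgm2 differed by 0.46 and Ugp2, which makes UDP-glucose, by 0.41. Gbe1, the branching enzyme and a HIF target, was at 4.57 and 4.38.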
